A study of Rattus norvegicus with 93 samples.

Results

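Cytosolic ribosomal protein genes encode the proteins of the small and large subunits of the ribosome outside mitochondria. They were taken as every row whose symbol is Rpl or Rps followed by a number and, where present, a, x or y, together with Rplp0, Rplp1, Rplp2 and Rpsa. The rule found 77 of 38354 rows, 31 of the small and 46 of the large subunit. Fau, whose ribosomal protein is made as a fusion with a ubiquitin-like sequence, lies outside the rule and was described apart. The members are spread over 19 chromosomes, with 4 on X, and all 77 have a RefSeq gene of that symbol.

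Polyadenylated RNA was measured in the rostromedial tegmental nucleus (RMTg), an inhibitory brainstem nucleus that projects to midbrain dopamine neurons, in outbred laboratory rats of a study on avoidance learning in addiction. The labels put all 93 samples in 1 group and name no treatment, strain, age, sex or genotype, and 1 sample was not used here, which left 92 libraries. The results below are from 49 ordinary libraries, in which Nif3l1 took under 20% and LOC120093067 plus Zfp532 under 10% of the estimated counts. The other 43 libraries (32 and 11) are given in the closing section.

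Estimated counts in the 49 libraries summed to 9.55 to 50.2 M (M, 1000000 counts; median 19.2 M), and 0 pairs of libraries were identical. All 10 markers of RMTg-type inhibitory neurons passed the filter on low values (log2(CPM + 1) of 1 or more in 20% or more of the 49), among them Gata3, Sox14 and Pnoc. Of 7 markers of other regions 1 passed, and their summed level was 2.39 to 19.8 CPM (estimated counts per 1000000). Oligodendrocyte markers summed to 33002 to 78008 CPM. Sample identifiers fall into number series, and the 49 libraries are 7 of series B, 16 of C, 12 of D, 7 of E and 7 of F. The labels do not say what these series are. Each library has an identifier of its own but nothing else ties it to an animal, so p-values measure the spread between these libraries.

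The ribosome translates messenger RNA: the small subunit reads the codons and the large subunit forms the peptide bonds. Cells make the ribosomal proteins in matched amounts, and most of their messenger RNAs start with a short run of pyrimidines, the 5′ terminal oligopyrimidine (TOP) tract, through which mTOR signalling and LARP1 control their translation. In neurons, ribosomes lie in the cell body and dendrites, where they supply new protein to synapses.

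RefSeq promoter windows of 300 bases (250 before to 50 after the start, GRCr8) were found for 62 of the 77 members. The start is the one the table gives for a gene: it was the outer end of the RefSeq gene in 26 of the 62 and lay inside the gene in 36, by over 1000 bases in 9. The letters CTTTC, a pyrimidine run of the TOP type, lay on the gene's strand within 10 bases either side of the start in 20 of these 62 members (32.3%). The same letters were found there in 618 of 27457 promoters of all genes (2.25%). Read on the other strand (GAAAG), they were found in 1 of 62 members and in 2.35% of all promoters. CCGGAAG, a form of the site of ETS factors, lay on either strand anywhere in the window in 20 members (32.3%) and in 9.22% of all promoters. TATAAA, the TATA box, lay 40 to 21 bases before the start in 1 member and in 1.33% of all promoters. A match is a description of the letters, not a bound site.

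The 40 bases around the start are shown for those of the 6 members most alike and the 6 least alike to the other members (below) that have a window, so that both ends of the set can be compared. Each runs from 20 bases before to 20 bases after the start, 5′ to 3′ on the gene's strand, the first 5 being the most alike, with CTTTC in capitals where it lies wholly within 10 bases of the start. The start used lies 2616 bases inside the gene for Rpl27a, and 67 to 125 bases inside for Rps27, Rpl31, Rpl3 and Rpl13.
Rpl37a (GRCr8 chr9:81748071-81748110, plus strand): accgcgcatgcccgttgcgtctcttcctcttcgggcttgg
Rpl27a (GRCr8 chr1:172974553-172974592, plus strand): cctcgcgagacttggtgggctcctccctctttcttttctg
Rpl26 (GRCr8 chr10:54109672-54109711, plus strand): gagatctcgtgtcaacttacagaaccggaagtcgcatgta
Rps27 (GRCr8 chr2:177964587-177964626, minus strand): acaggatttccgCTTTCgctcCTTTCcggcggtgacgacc
Rpl31 (GRCr8 chr9:49143091-49143130, plus strand): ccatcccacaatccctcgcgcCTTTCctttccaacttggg
Rpl3 (GRCr8 chr7:113507971-113508010, minus strand): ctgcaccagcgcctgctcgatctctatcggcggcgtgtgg
Rpl4 (GRCr8 chr8:73566457-73566496, plus strand): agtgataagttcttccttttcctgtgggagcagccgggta
Rpl12 (GRCr8 chr3:36661920-36661959, plus strand): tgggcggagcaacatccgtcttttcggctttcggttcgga
Rplp0 (GRCr8 chr12:46718371-46718410, minus strand): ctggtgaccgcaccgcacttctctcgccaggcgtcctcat
Rpl13 (GRCr8 chr19:68062494-68062533, plus strand): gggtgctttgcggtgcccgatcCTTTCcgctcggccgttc
Rpl7a (GRCr8 chr3:30637116-30637155, plus strand): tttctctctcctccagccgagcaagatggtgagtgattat
Within the searched window, 2 of the 5 most alike members (Rps27 and Rpl31) and 1 of the 6 least alike (Rpl13) hold CTTTC. Over all 62 members, the median correlation with the other members (defined below) was 0.876 in the 20 with CTTTC and 0.853 in the 42 without it.

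The members summed to a median of 1.37% of all estimated counts (lowest 0.945%, highest 2.36%), or 1.42% ± 0.249 (SD, n = 49). The median was 1.45% in series B, 1.38% in C, 1.29% in D, 1.37% in E and 1.47% in F. The ranges of the 5 series overlapped, and series C and D each held both low and high libraries. In bulk tissue, fewer cells rich in ribosomal protein RNA and less of it per cell cannot be told apart.

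**Figure D1:**
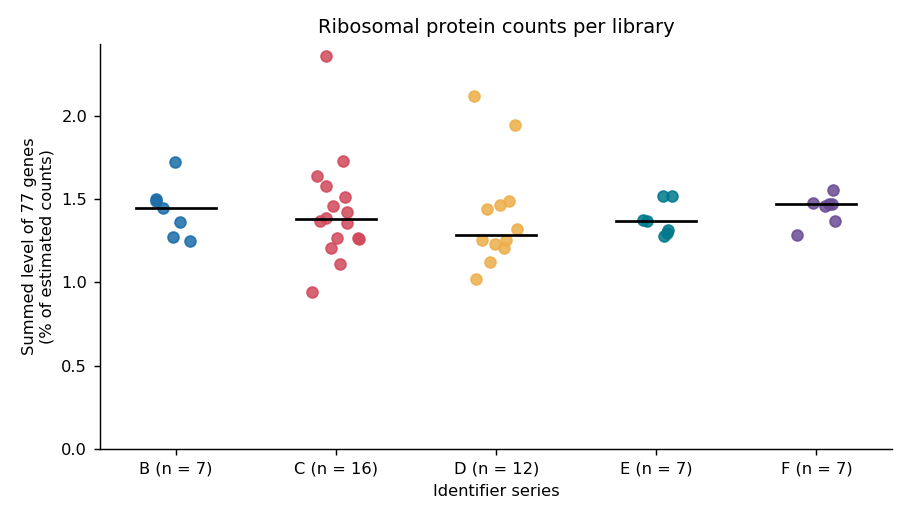
Summed level of the 77 ribosomal protein genes as a percent of estimated counts (y axis) in each of 49 libraries (points), by identifier series (x axis), with bars at the medians. The 3 highest libraries, 1 of series C and 2 of series D, lie at 1.95% to 2.36%, and all others at 1.73% or below.

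A set of 3 libraries stood above the others, at 2.36% (series C), 2.12% and 1.95% (series D), while the highest of the other 46 was 1.73% and their SD was 0.163. In these 3 libraries 66 of 77 members were above their median in all 3. For 32 members, every one of the 3 values exceeded those of all other libraries. Both counts are a description, since the members' sum chose the libraries. The shares over all genes were not computed. Rpl31, a large subunit protein at the peptide exit tunnel, was at 276 to 376 CPM there, against a median of 143 and a highest value of 192 CPM in the other 46. Rpl3, which lies near the peptidyl transferase centre, was at 282 to 353 CPM there against a median of 313 CPM elsewhere, and only 1 of the 3 values was above its median over all libraries. The 3 libraries ranked 36, 49 and 39 of 49 by oligodendrocyte score (the mean z-scored log2 level of the list's genes) and 49, 39 and 45 by endothelial score, rank 1 being the highest. Their ranks were 2, 46 and 38 by astrocyte score, 24, 5 and 49 by microglia score and 30, 49 and 36 by long neuronal score. By translation factor score the 3 ranked 5, 20 and 23, and by respiratory chain score 28, 1 and 18. The summed oligodendrocyte level was 54291, 33002 and 53087 CPM, against a median of 50754 CPM over the 49. The highest library had the fewest genes above 0, 23690, while the other 48 had 25175 or more. They also ranked 4, 12 and 1 by the share of LOC120093067 plus Zfp532, at 4.35%, 3.33% and 5.5% of the counts. The part of these differences in the result was not tested. Slopes below are therefore also given without these 3 libraries where that changes a call.

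The lowest summed levels were 0.945% (series C), 1.02% (series D) and 1.11% (series C). The lowest library ranked 49 of 49 by respiratory chain score and 48 by translation factor score, with respiratory chain genes summing to 3258 CPM against a median of 6236 CPM. It also ranked 49 by astrocyte score and 48 by long neuronal score, and its summed oligodendrocyte level, 78008 CPM, was the highest of the 49. The part of these in its low level was not tested.

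No member was at 0 in any of the 49 libraries, the smallest estimated count was 33.5, and all 77 passed the filter. Each member varied over libraries by a median SD of 0.29 on the log2(CPM + 1) scale (range 0.15 to 0.52). In 9 members the highest library was less than 2 times the lowest, and the median ratio over the 77 was 3.36. Relative to the trend of SD on mean level over all genes, 55 members varied more and 22 less, with a median difference of 0.05 (all genes -0.00068). Transcript length was not taken out when CPM was computed, and the levels of different members were therefore not ranked.

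**Figure D2:**
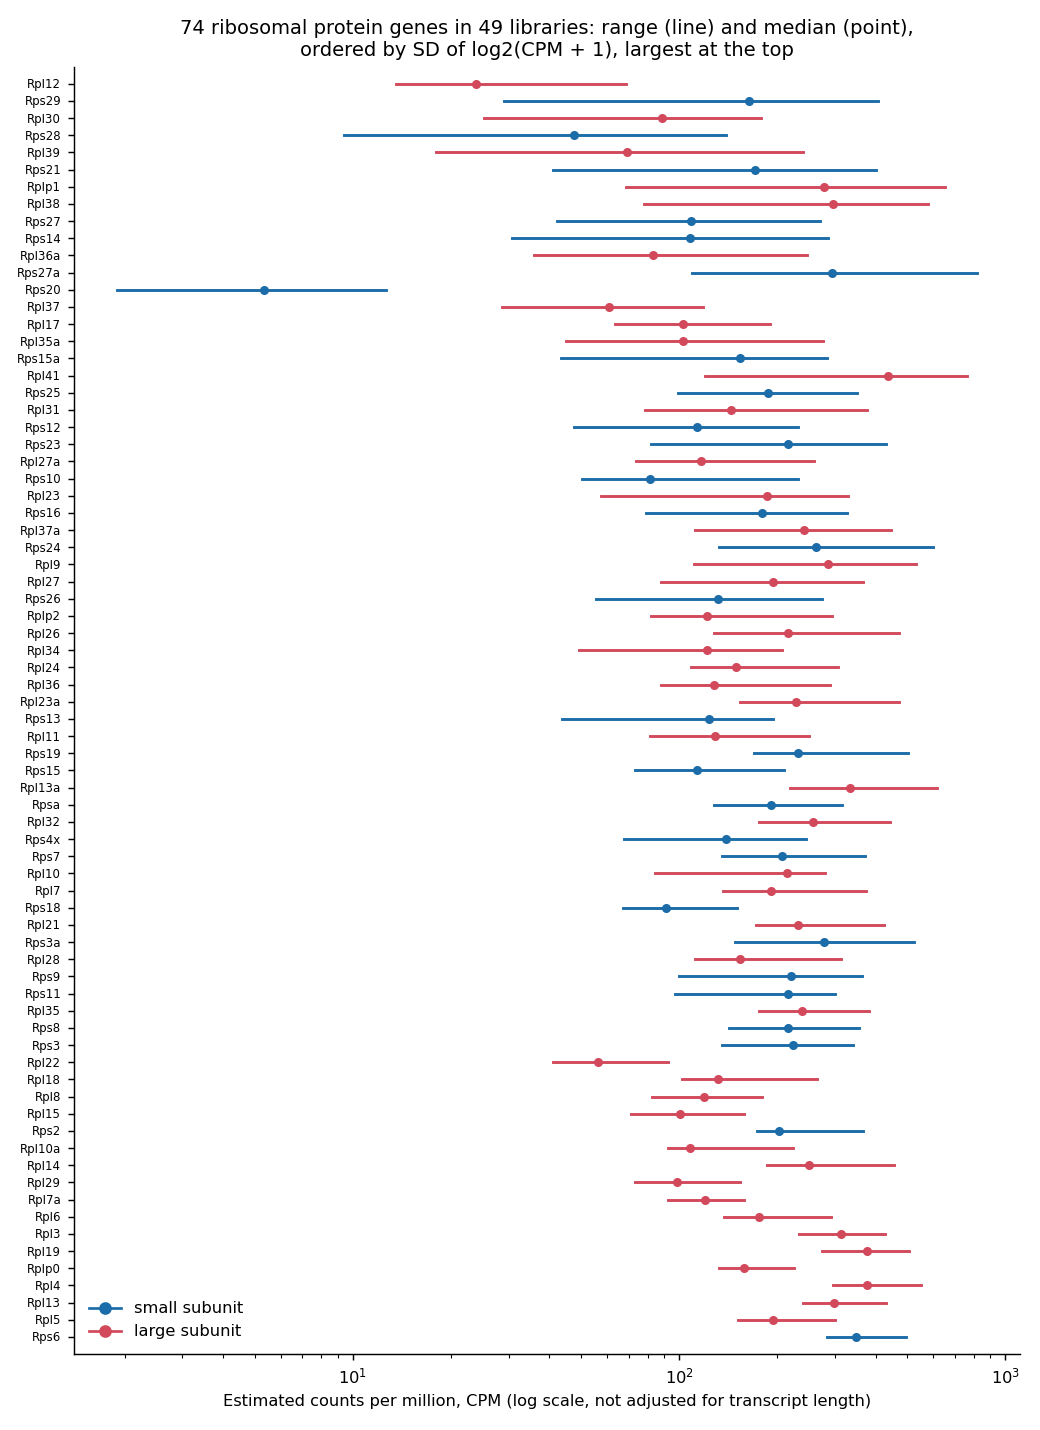
Range (line) and median (point) of 74 of the 77 ribosomal protein genes over 49 libraries in CPM (x axis, log scale), one gene per line, ordered by the SD of log2(CPM + 1) with the largest at the top and coloured by subunit. Rpl12, Rps29 and Rpl30 have the largest SDs, and Rps6, Rpl5 and Rpl13 the smallest.

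The members that varied least for their level included core proteins of both subunits. Rps6, the small subunit protein phosphorylated by S6 kinases (chromosome 5, 106417680 to 106420540 in GRCr8), ranged from 284 to 495 CPM with a median of 347 CPM, an SD of 0.15. Rpl5, which carries the 5S ribosomal RNA together with Rpl11, ranged from 152 to 301 CPM (median 194). Rpl4, whose loop lines the exit tunnel, ranged from 297 to 551 CPM (median 377). Rplp0, the base of the P stalk that binds elongation factors, ranged from 133 to 224 CPM (median 158). Rpl13 was also among the 6 smallest residual SDs, and 5 of the 6 belong to the large subunit.

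The members that varied most for their level were Rpl30, Rps29, Rpl12, Rps28, Rpl39 and Rps21. Rps29, a small zinc-binding protein of the small subunit (chromosome 6, 93371293 to 93372731 in GRCr8), ranged from 29.1 to 407 CPM with a median of 164 CPM. Rps28 ranged from 9.39 to 139 CPM (median 47.7). Rpl39, an X-linked gene for a very short protein of the exit tunnel, ranged from 17.9 to 240 CPM (median 69.4). Rpl12, a protein at the base of the P stalk, ranged from 13.5 to 68.6 CPM (median 23.9).

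Rpl30 (chromosome 7, 67533420 to 67536555 in GRCr8), a large subunit protein at the contact with the small subunit, had the widest gap between neighbouring libraries. In 5 libraries it was at 25.3 to 48.2 CPM and in 44 at 67 to 178 CPM, a gap of 0.47 in log2. The 5 low libraries were 2 of series C and 1 each of D, E and F. The next widest gaps, in Rps15a (0.20), Rpl37 (0.20), Rps20 (0.19), Rps27 (0.19) and Rpl9 (0.17), were narrower.

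The members varied together. Of 2926 pairs of members 2924 had a Pearson r above 0 over the 49 libraries, with a median of 0.71. The median was 0.80 within the small subunit, 0.65 within the large subunit and 0.71 between them. Among 73 mitochondrial ribosomal protein genes it was 0.30, between these and the members 0.25, and over all pairs of genes past the filter 0.026. These coefficients describe the same 49 libraries, share their totals as a scale, and carry no test. The first principal component held 69.4% of the members' variance, 35.1% of that of the mitochondrial ribosomal protein genes and 17.5% of that of all genes.

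The mean log2 levels of the small and large subunit members had a Pearson r of 0.97 and a Spearman rho of 0.98 over the 49 libraries (r 0.99 when the 2 most extreme libraries were left out). The small subunit mean varied by an SD of 0.28 and the large subunit mean by 0.23, while their difference varied by 0.08. By SD, the balance between the subunits varied less than the level of either. The difference, small minus large, had a median of -0.16 and a highest value of -0.025. Its lowest value, -0.61, lay far from that median.

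For each member, likeness to the set was measured as its r with the mean z-scored level of the other 76. The median was 0.866, and 53 members were above 0.8, 27 of 31 in the small and 26 of 46 in the large subunit. The 6 most alike included Rpl37a (0.966), Rpl27a (0.960), Rpl26 (0.958), Rps27 (0.951) and Rpl31 (0.943). Rpl37a (chromosome 9, 81748091 to 81750174 in GRCr8), a zinc-binding large subunit protein, ranged from 112 to 446 CPM (median 241).

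The least alike were Rpl3 (0.385), Rpl4 (0.464), Rpl12 (0.513), Rplp0 (0.548), Rpl13 (0.548) and Rpl7a (0.585), all of the large subunit. For several of these the value rested on 2 libraries. With the 2 most extreme libraries by the others' mean left out, r was 0.537 for Rpl3, 0.705 for Rpl4, 0.770 for Rpl13 and 0.781 for Rpl7a, while it was 0.512 for Rpl12 and 0.633 for Rplp0. Rpl3 (chromosome 7, 113491943 to 113508115 in GRCr8) ranged from 233 to 429 CPM (median 313), one of the narrower ranges of the set.

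**Figure D3:**
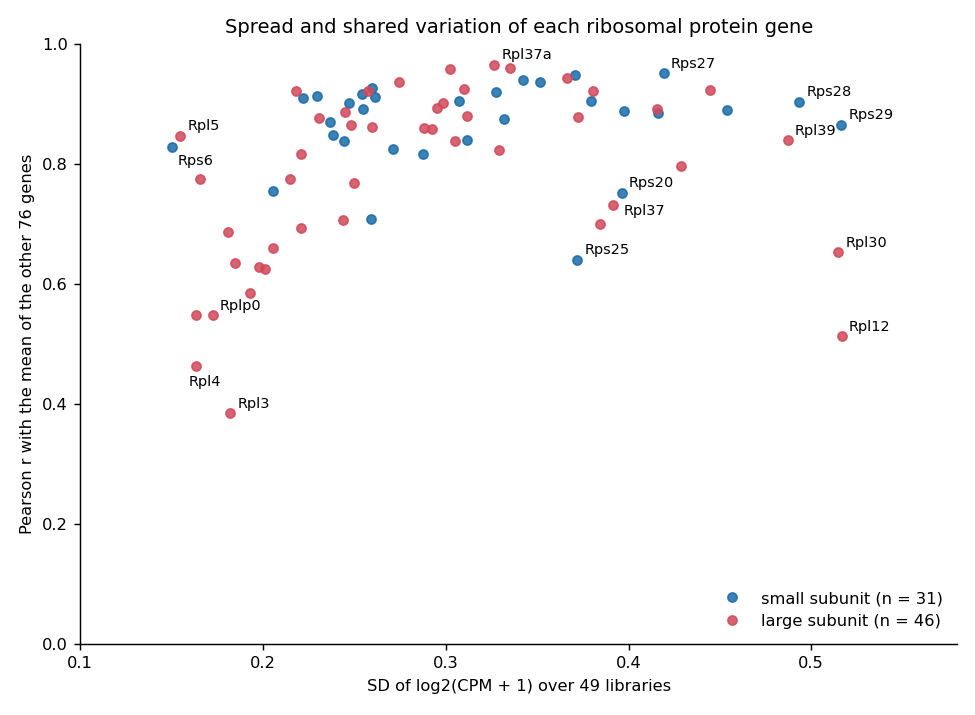
SD of log2(CPM + 1) over 49 libraries (x axis) against Pearson r with the mean of the other 76 genes (y axis) for each ribosomal protein gene, coloured by subunit. Rpl3, Rpl4 and Rplp0 combine a small SD with a low r, and Rpl30 and Rpl12 a large SD with a low r.

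Counts of ribosomal protein genes are shared with copies, since these genes have many retrotransposed and near-identical relatives. The table holds 240 rows named as a member plus l or -ps and a number, for 66 of the 77 members. Of these, 223 are protein coding and 14 pseudogenes in RefSeq, 69 passed the filter, and together they took 0.0618% to 0.249% of the counts (median 0.124%). Copies held over 20% of the estimated counts of member and copies in 11 families and over 50% in 5, and under 5% in 43 of the 66.

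Where copies hold a large share, the member's own row is an uncertain measure of the gene. Rps20 (chromosome 5, 21616687 to 21618068 in GRCr8), a small subunit protein, had 1.89 to 12.7 CPM (median 5.35), while the row Rps20-ps11 had 36.7 to 307 CPM (median 106), so copies held 95.5% of the family. Copies held 70.4% for Rpl37 (mainly Rpl37l1), 58.2% for Rps28 (Rps28-ps5), 55.7% for Rpl36a (Rpl36al1), 46% for Rps14 (Rps14-ps7) and 31.6% for Rpl30 (Rpl30l2). For Rpl22 (69.8%) and Rpl7 (23.9%) the leading rows, Rpl22l1 and Rpl7l1, are known as distinct paralogs. Both families are counted among the 11 above 20%, and Rpl22 among the 5 above 50%.

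Adding the copies to the member brought some outlying members closer to the set and moved other members away from it. The r with the other members was 0.653 for Rpl30 alone and 0.873 for its sum, 0.752 and 0.938 for Rps20, and 0.732 and 0.928 for Rpl37. For Rps29 r went from 0.866 alone to 0.777 for the sum and for Rps28 from 0.904 to 0.822. For Rpl7, where the sum mainly adds the paralog Rpl7l1, r went from 0.866 to 0.781. The sum had the higher r in 6 of the 11 families and the lower SD in 8. In the 5 libraries of low Rpl30, its copies were at 10.3 to 74.3 CPM, against 15.6 to 89.6 CPM in the other 44.

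**Figure D4:**
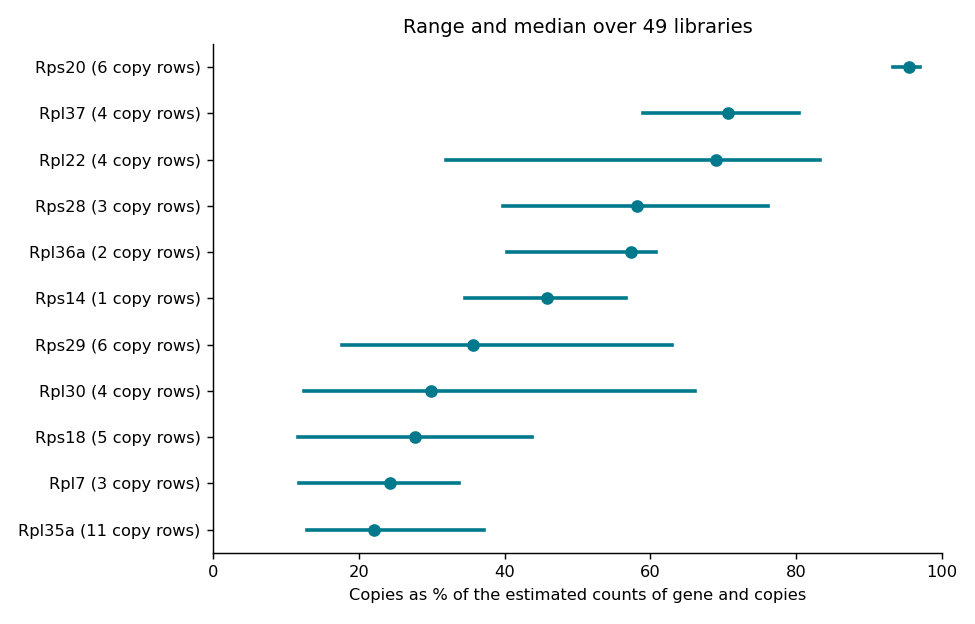
Copies as a percent of the estimated counts of a ribosomal protein gene and its copies (x axis) for the 11 families above 20% (y axis), with the range (line) and median (point) over 49 libraries. For Rps20 the range does not fall below 93.3%, while for Rpl30 it runs from 12.5% to 66.1%. For Rpl22 and Rpl7 the leading rows are distinct paralogs.

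No member passed between identifier series. By limma's F test over the 5 series 0 of 77 members passed at an adjusted p under 0.05 (Benjamini-Hochberg over 18749 genes), against a background of 1.71% of all genes. A count of 0 lies near that share and is not a result about the members. At an unadjusted p under 0.05 the count was also 0, against 2775 of all 18749 genes. The members varied together (above), so they are not 77 separate cases. The smallest p was for Rpl3 (0.083, adjusted 0.42), whose medians were 325, 308, 295, 329 and 320 CPM in series B to F. Between the 10 pairs of series 0 of 77 passed in any pair, which is also near the background (2.83% of genes in at least 1 pair). At most 1 member a pair had an unadjusted p under 0.05. Series D had the lowest of the 5 medians in 52 members, and series F the highest in 36 and B in 26, with ranges that overlapped. The shares over all genes were not computed, so these counts are not a result about the members.

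For slopes on the log10 library total 0 of 77 members passed by limma, as did almost no gene (background 0% rising and 0.0107% falling), so the count is not a result about the members. None (0) had an unadjusted p under 0.05, and the median slope was -0.0049 per SD.

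Slopes were then fitted with limma on scores of fixed gene lists, in log2 units per SD of the score, leaving the list's own genes out of the genes tested. The lists and members were chosen with earlier results known. Scores and members come from the same libraries and share their totals.

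With the translation factor score (16 genes, including the elongation factors Eef1a1 and Eef2), 73 of 77 members rose and 0 fell, against 9.21% of all genes rising and 16.3% falling. The list also holds Naca, Btf3, Tpt1 and Nap1l1, which are not initiation or elongation factors. Their r with the members' mean was 0.633 to 0.793, against 0.366 for Eef1a1 and 0.233 for Eef2. The other genes of the list ran from -0.525 (Pabpc1) to 0.828 (Eef1b2). The part of single genes of the list in the slopes was not tested. The median slope was 0.16, and -0.01 over all genes. The steepest were Rpl30 (0.28 ± 0.059 SE, adjusted p = 0.00019 by limma), Rps28 (0.27 ± 0.057) and Rplp1 (0.25 ± 0.051), an acidic protein of the P stalk. The shallowest that passed was Rpl13 (0.08 ± 0.022). Rplp2, Rpl22, Rps25 and Rpl38 did not pass. Fau and Rack1, other parts of the ribosome, rose, with slopes of 0.14 and 0.17, as did 37 of 73 mitochondrial ribosomal protein genes.

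With the respiratory chain score (15 nuclear genes of the oxidative phosphorylation complexes), 59 of 77 members rose and 0 fell, against 11.1% of all genes rising and 11.8% falling. The steepest were Rps28 (0.36 ± 0.047 SE), Rps29 (0.36 ± 0.052), Rpl30 (0.32 ± 0.055) and Rplp1 (0.32 ± 0.043). By subunit, 30 of 31 small and 29 of 46 large subunit members passed. Those that did not included Rpl3, Rpl4, Rpl13, Rpl7a, Rpl12 and Rplp0, the 6 least alike members above. Both relations kept their direction under size factors by the median of ratios, with 77 and 69 members rising (15.6% and 15.8% of all genes). The library of lowest summed level had a respiratory chain score of -3.63, and the next lowest score was -1.05. The part of that library in these slopes was not tested. Without the 5 libraries least correlated with the others, 63 members rose with the respiratory chain score (4.53% of all genes). The median slope was then 0.105, against 0.146 over the 49.

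**Figure D5:**
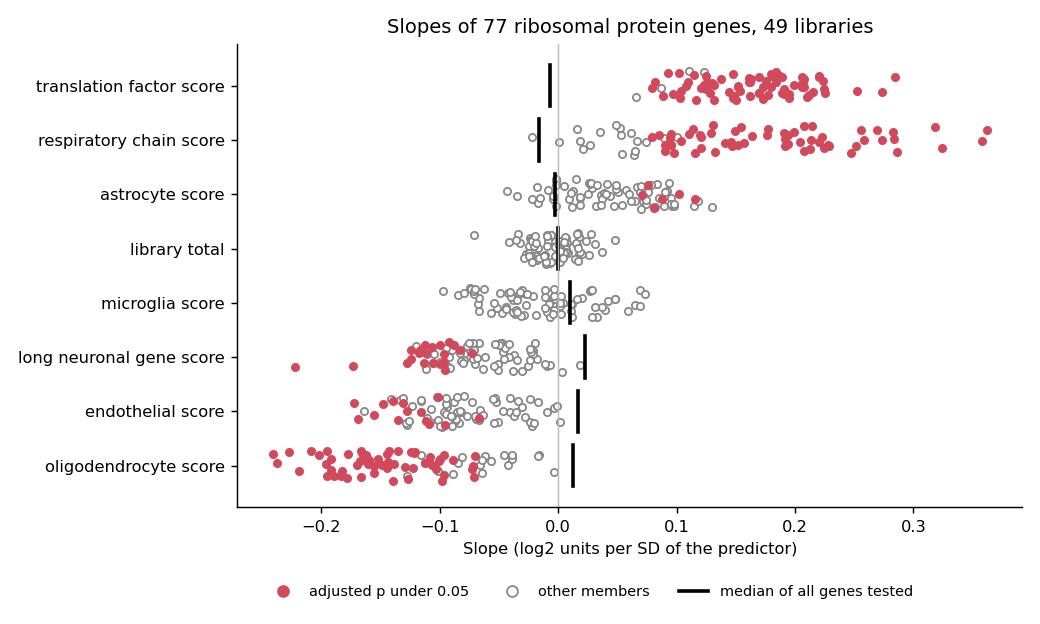
Slopes of the 77 ribosomal protein genes (points, x axis in log2 units per SD) on 8 predictors (y axis) over 49 libraries, filled where the adjusted p is under 0.05, with bars at the median of all genes tested. Members lie to the right for the translation factor and respiratory chain scores, and to the left for the oligodendrocyte score, where 0 passed after median-of-ratios scaling.

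With the oligodendrocyte score (8 myelin genes such as Mbp), 58 of 77 members fell when counts were scaled by library totals and 0 when scaled by the median of ratios, where 2.85% of all genes fell. The background was 5.34% of genes falling and 9.58% rising. The median slope was -0.13 with totals (all genes 0.01) and -0.07 with the median of ratios, and 77 and 75 members had slopes below 0. Rps29 had -0.24 ± 0.063 SE (adjusted p = 0.0070 by limma) and, with the median of ratios, -0.13 ± 0.074 (adjusted p = 0.26). Without the 3 libraries of highest summed level 33 members fell (3.72% of all genes).

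With the long neuronal gene score (12 genes such as Cntnap2), 21 of 77 members fell and 0 rose (background 2.47% falling and 12.2% rising), the median slope being -0.07 with totals and 0.0044 with the median of ratios, where 9 fell, a share of the members near the 13% of all genes that fell under that scaling. The steepest were Rpl12 (-0.22 ± 0.064 SE), Rps10 (-0.17 ± 0.040) and Rps18 (-0.13 ± 0.031). Of these and Rps2 and Rpl18, with the median of ratios Rps2 (-0.09, adjusted p = 0.026) and Rpl18 (-0.10, adjusted p = 0.013) passed and the other 3 did not. Without the 3 libraries of highest summed level 12 members fell (5.89% of all genes), and with Xist and Ddx3y levels as covariates 47 did (2.4% of all genes).

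With the endothelial score 14 of 77 fell (background 2.78% falling and 8.29% rising), led by Rpl36a (-0.17 ± 0.053 SE, adjusted p = 0.027 by limma) and Rpl17 (-0.17 ± 0.048), and 0 fell with the median of ratios (1.1% of all genes) or without the 3 libraries of highest summed level (0.779%). With the astrocyte score 6 of 77 rose, among them Rpl9 (0.10 ± 0.041 SE, adjusted p = 0.049 by limma), which is under the background of 16.1% of genes rising (17% fell). With the median of ratios 45 rose (18.9% of all genes), and without the 3 libraries of highest summed level 15 did (18% of all genes). With the microglia score 0 passed (background 3.62% rising and 0.624% falling), which is near that share and not a result about the members. At an unadjusted p under 0.05, 5 members rose and 0 fell, against 2592 genes rising and 1193 falling of 18740.

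The other genes of ribosome production were compared with the members' mean by r, as a description over the 49 libraries. Fau had an r of 0.929 and Rack1 an r of 0.700. Of the 16 genes of the translation factor list 14 were positive, with Eef1b2 (0.828) and Naca (0.793) the highest. The elongation factors Eef1a1 (0.366) and Eef2 (0.233) were lower, and Pabpc1, the poly(A)-binding protein, was at -0.525. Of 16 ribosome biogenesis genes 5 were positive, with Nop10 at 0.630 and Nop56 at -0.671. Of 11 growth signalling genes 4 were positive, and Mtor (-0.086) and Larp1 (-0.050) lay near 0.

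Among all non-member genes past the filter, the 10 most alike to the members' mean included Pfdn5 (r 0.945), a prefoldin subunit, Rps20-ps11 (0.939), Fau (0.929), Atp5f1e (0.908), a small subunit of ATP synthase, and Tbca (0.891), a tubulin chaperone. Ndufa6, Hint1, Ndufs5, Rpl36al1 and Rpl37l1 complete them. The level of Pfdn5 was 98.2 ± 20.5 CPM (SD, n = 49). The 10 least alike were Rfxap (-0.780), Taf8, Kpnb1, Abcf2, Txlna, Git2, Nol9, Leo1, Calcoco1 and Srcap (-0.742).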

How the data were processed

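The authors deposited 1 table of log2 values, genes by libraries. Kallisto 0.48 is named per the submitters' processing notes, and the genome build is not given in the sources used here. The deposited entries were read as log2 of an estimated count plus 1. Their back-transformed totals differ between libraries, so depth was not removed. Among back-transformed entries over 0 and below 20, 50.0% lie within 0.01 of a whole number, as unscaled counts would. No source states whether transcript length was taken out. Values were back-transformed with 2 to the power x minus 1 and scaled to CPM by each library's total. Tests used log2(CPM + 1) in limma 3.58.1 (R 4.3.3), using its moderated statistics and a trend on the mean, with Benjamini-Hochberg adjustment over all 18749 genes past the filter. Identifier series were split where neighbouring sample identifiers differed by over 50000.

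A list's score was the mean z-score of its genes past the filter. Genes were named as members, members of the lists, or by rank: the 6 highest and lowest for spread, likeness and gap, the 4 steepest slopes each way that passed, and the 10 most and least alike other genes. Some genes that these rules pick are counted but not reported here. The members, lists and rules were chosen with earlier results of these data known, and the motifs after looking at the promoters. Promoters are from RefSeq (GRCr8), 1 window a symbol, and 15 members have none there. The other positions printed are RefSeq's for the same symbol. The position the deposited table gives is an end of that gene for 77 of 77 members. Sequencing depth limits the precision, and totals are estimated counts.

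On data simulated from these libraries over 18749 genes, slopes of 0.3 were recovered in 95.5% of 200 changed genes and slopes of 0.1 in 13.5%, and the F test recovered 82.5% at a change of 0.6 between series and 0% at 0.2. The simulated noise was independent between genes, and the slope predictor was the log10 library total. The members vary together and the scores come from genes of the same libraries, so these rates do not carry over to counts of members. Of 12 alternatives 2 were added after seeing the data: members summed with their copies, and leaving out the 3 libraries of highest summed level.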

Additional observations from a re-analysis of the deposited data

How the results depend on the processing

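Of 117 values recomputed under 12 alternatives, 99 stayed within 1.5 times the count reported, 18 moved further and 0 reversed. The 99 include every count that was 0 both times. A reversal was scored only from members called rising or falling, so it could not occur for counts of 0 or for the F test. It leaves out changes in the sign of a median slope, as for the long neuronal score (-0.07 with totals, 0.0044 with the median of ratios). Counts of rising members stayed at 66 to 77 for the translation factor score and 56 to 69 for the respiratory chain score. Counts between series and pairs of series and with library total and microglia score stayed at 0. With median-of-ratios scaling the counts were 0 for the oligodendrocyte score, 45 for astrocyte, 0 for endothelial and 9 for long neuronal; size factors relative to totals differed from -0.24 to 0.08 in log2 over the 8 libraries of highest and lowest summed level. Without a filter on low values they were 1 for astrocyte and 9 for endothelial. Without the 5 libraries least correlated with the others they were 35 for oligodendrocyte, 3 for astrocyte (2 rising, 1 falling) and 7 for endothelial. With identifier series as a covariate 2 passed for astrocyte. With Xist and Ddx3y levels as covariates 47 passed for long neuronal and 28 for endothelial. With the share of LOC120093067 plus Zfp532 limited to 4%, which left 43 libraries, 1 passed for astrocyte and 0 for endothelial. Without the 3 libraries of highest summed level the counts were 33 for oligodendrocyte, 15 for astrocyte, 0 for endothelial and 12 for long neuronal. The cause of these changes was not tested, beyond fewer libraries where some were left out and more genes where the filter was dropped. No paired analysis was possible because the study has 1 group. Slopes of 0.1 were mostly missed in simulated data. That rate does not carry over to counts of members, so how many members with such slopes go uncalled is not known.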

Other observations

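Ribosomal protein genes took a smaller share of the estimated counts in the libraries set aside. In the 32 libraries in which LOC120093067 and Zfp532 took over 10% of the counts, the members summed to a median of 0.346% (0.139% to 3.13%), and in the 11 in which Nif3l1 took over 20%, to 0.0071% (0.0033% to 0.0142%). Against the ordinary libraries, 76 of 77 members had a lower mean log2 level in the 32 libraries, as did 15288 of 18749 genes. The median difference was -1.74 (all genes -0.85). With 9 features left out of the totals, 73 of 77 members were lower, as were 11808 of 18741 genes. The 9 were LOC120093067, Zfp532, Nif3l1 and rows named as ribosomal RNA. The median difference was then -0.99 (all genes -0.35). The median was -0.92 within series B and -1.26 within series C. The kinds of library were defined from the counts, so no test was made. Rpl12, at the base of the P stalk, was the 1 member with a higher mean before the 9 features were left out, by 0.35. It also had the largest rise after, 1.10. Rps12, Rps20 and Rplp1 also had higher means after but not before. These 4 members were named after their values were seen. Within series, Rps20 was higher in B (0.29) and lower in C (-0.27), and its own row had a median of 3.79 CPM in the 32 libraries.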
